A study of Mus musculus with 4 samples.

Results

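Syngr1, Rapsn, Olfml3 and Fcrls are 4 of the 31053 genes counted in single cardiac myeloid cells of the mouse. They were chosen by an earlier reading of these same counts, as leading genes of reparative-like cells, so their excess in reparative-like cells is a description and carries no test. The cells came from CSF1R-EGFP+ mice of 12 to 16 weeks, whose EGFP is driven by the Csf1r promoter, which is active in monocytes, macrophages and some granulocytes, and they were sorted as EGFP+ Ly6G- events. The baseline group is 1 library of 3 pooled hearts without surgery, and the infarct group is 3 libraries of 1 heart each, taken 7 days after ligation of the left coronary artery. All 4 libraries share the reporter genotype, and no sham operation was included, so surgery and infarction cannot be told apart.

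Macrophages that fill a healing infarct pass from an inflammatory state to a reparative one, in which they clear debris, handle lipid and secrete growth factors and matrix proteins. Syngr1 encodes synaptogyrin 1, a membrane protein with 4 transmembrane segments best known from synaptic vesicles. Rapsn encodes rapsyn, the scaffold that clusters acetylcholine receptors at the neuromuscular junction. Olfml3 encodes a secreted glycoprotein with an olfactomedin domain, and Fcrls encodes an Fc receptor-like molecule with a scavenger receptor domain. Both of these are known as markers of brain microglia.

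All 4 genes are protein-coding and are placed here on GRCm38. Syngr1 (ENSMUSG00000022415) lies at chr15:80091334-80119501 on the plus strand, and its first bases overlap Rpl3 on the minus strand (chr15:80091334-80091868). Rapsn (ENSMUSG00000002104) lies at chr2:91035620-91045729 on the plus strand, and its 3′ part overlaps the antisense gene Gm13778 (chr2:91044092-91045729). Since the sources used here do not state how strand was treated in counting, reads from the stretches that Rapsn shares with Gm13778 and Syngr1 with Rpl3 are uncertain. Olfml3 (ENSMUSG00000027848, chr3:103722222-103738001) and Fcrls (ENSMUSG00000015852, chr3:87250758-87263738) both lie on the minus strand of chromosome 3 and overlap no other annotated gene.

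The bases just before the transcription start are shown for the 3 of 4 genes that RefSeq's table for GRCm38.p6 holds, because the genes were picked for a shared pattern and a reader may want to see whether their promoters look alike. Each is written 5′ to 3′ on the gene's own strand, in lower case, with matches to a PU.1 core (GAGGAA) in capitals. For Syngr1 (chr15:80091084-80091333) and Olfml3 (chr3:103738002-103738251) the window holds the 250 bases before the start. The Rpl3 coordinates above were cut to the Syngr1 span and begin at its first base. Whether the Syngr1 window also lies inside the Rpl3 gene was not recorded, although 0 of its bases lie in annotated exons. In the Fcrls window, 136 bases lie in annotated exons, and only the longest stretch outside them is shown. It holds the 78 bases from 153 to 76 before the start (chr3:87263600-87263677). RefSeq's start for Fcrls lies downstream of the start of the gene span given above, so this stretch is inside that span.
Syngr1: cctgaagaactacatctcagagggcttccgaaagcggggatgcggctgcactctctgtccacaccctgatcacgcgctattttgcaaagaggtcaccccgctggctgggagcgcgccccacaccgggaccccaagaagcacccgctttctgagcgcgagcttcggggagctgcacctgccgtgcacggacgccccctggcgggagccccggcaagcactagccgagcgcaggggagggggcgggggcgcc
Olfml3: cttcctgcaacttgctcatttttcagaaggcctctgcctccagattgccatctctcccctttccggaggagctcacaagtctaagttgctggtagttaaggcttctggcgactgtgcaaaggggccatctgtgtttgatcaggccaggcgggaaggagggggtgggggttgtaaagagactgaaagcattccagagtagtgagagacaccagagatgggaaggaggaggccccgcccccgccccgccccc
Fcrls: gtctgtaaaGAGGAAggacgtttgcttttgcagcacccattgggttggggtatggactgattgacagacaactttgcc
The printed stretches differ in composition, with 68.4% G and C for Syngr1, 57.6% for Olfml3 and 48.7% for Fcrls. On both strands of the 250-base windows, GAGGAA was found once at Fcrls and not at Syngr1 or Olfml3, and 23.3% of all 32851 windows in the table hold it. An AP-1 site (TGANTCA, in 6.75% of windows) and the E-box CACGTG (in 6.02%) were found in none of the 3. These matches describe letters only.

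The filter of the study left 41533 cells, with 10238 in the baseline library and 10117 to 10782 in each infarct library. Median depth was 6398.5 UMIs per cell at baseline and 8469.5 to 8556.5 in infarcts. The libraries share 26 to 34 barcodes per pair. Macrophage genes (C1qa, C1qb, C1qc, Adgre1, Mertk) reached 50 UMIs per 10000 in 6243 baseline cells and in 7305 to 8751 cells of each infarct library.

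Cells were named by summed UMIs of marker genes per 10000 UMIs. Cells with markers of other lineages, dendritic-like cells and Saa3-Arg1 cells were set apart first. The last had at least 20 such UMIs of Saa3, Arg1 and Marco together, with at least 2 of these genes found. Macrophages with at least 10 such UMIs of Gpnmb, Spp1, Gdf15, Trem2, Sparc and Pdgfb together were called reparative-like. At least 2 of these markers had to be found, and their sum had to exceed that of the resident markers named below. Reparative-like cells numbered 235 at baseline and 3792, 5692 and 4667 in the infarcts. The score has no natural gap at this limit, since 15.2% to 16.7% of the infarct macrophages and 6.94% of the baseline macrophages had between 8 and 12 UMIs per 10000. Macrophages with Lyve1, Cd163, Timd4, Folr2, Cbr2 and Retnla were called resident-like, and those in neither class are called other macrophages. A further class with the reparative markers, at least 1 Gpnmb UMI and few C1q transcripts is called C1q-low Gpnmb cells below. Its reparative marker sum also had to exceed the sums of the resident and classical monocyte markers. That class was added after Syngr1 values had been seen, and its Syngr1 level is therefore a description.

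None of the members was used in the gates. In the infarcts, each ranked near the top of 7773 genes by the ratio of reparative-like to all other cells, which is the kind of contrast they were chosen by. Syngr1 was rank 3, behind Gdf15 and Shisa9 and just ahead of the gate's own markers Gpnmb and Trem2. Fcrls was rank 12, between Cela1 and its family member Fcrl1. Olfml3 was rank 16, between Cdk18 and Spp1, and Rapsn was rank 27, between Ahnak2 and Bhlhe41. The log2 ratio was 1.87 ± 0.36 for Syngr1, 1.42 ± 0.30 for Fcrls, 1.34 ± 0.33 for Olfml3 and 1.22 ± 0.25 for Rapsn (SD, n = 3 infarct hearts).

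Of the 4 genes, Syngr1 differed most between reparative-like cells and other macrophages. In reparative-like cells it was counted at 204, 167 and 162 CPM (UMIs per 1000000 UMIs of the summed cells, mitochondrial genes left out) in infarcts 1 to 3 and at 97.1 CPM at baseline. Other macrophages held 28.5, 44.4 and 35.3 CPM in the infarcts and 1.58 CPM at baseline, and resident-like cells 11.4 to 29.7 CPM and 4.14 CPM. Reparative-like cells were above other macrophages in each of the 4 libraries. The C1q-low Gpnmb cells were higher still, with 413, 254 and 363 CPM in the infarcts and 380 CPM at baseline, so that this small class had more Syngr1 per UMI than the reparative-like cells in every library.

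Rapsn was the lowest of the 4 in infarct reparative-like cells. Reparative-like cells held 52.7, 62.2 and 60.0 CPM and other macrophages 37.0, 47.0 and 47.7 CPM, with each heart higher in the former. Resident-like cells ranged from 14.01 to 45.7 CPM on 16 to 29 UMIs, and C1q-low Gpnmb cells from 12.0 to 31.0 CPM, below the reparative-like cells of the same heart in all 3. At baseline every macrophage class lay between 5.95 and 13.96 CPM, and the counting intervals of reparative-like (5.70 to 14.4 CPM), other (6.84 to 9.55 CPM) and C1q-low Gpnmb cells (8.13 to 22.4 CPM) overlapped. The interval of resident-like cells (5.01 to 7.02 CPM) overlapped the first pair and lay below that of the C1q-low Gpnmb cells.

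Olfml3 was nearly level across the infarct hearts in reparative-like cells, at 143, 149 and 156 CPM, against 105 CPM at baseline. Other macrophages had 79.8, 104 and 94.9 CPM in infarcts and 38.0 CPM at baseline. The few cells with fibroblast markers that passed the sort were higher than any macrophage class, with 246, 380 and 240 CPM on 33, 4 and 8 cells, and their median macrophage marker score in the infarcts was 1.083 to 5.16 UMIs per 10000. Olfml3 UMIs are therefore not particular to the myeloid lineage, although fibroblast-like cells held only 0.748% ± 0.801 of all Olfml3 UMIs in an infarct library (SD, n = 3).

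Fcrls was the most abundant. Reparative-like cells held 832, 1047 and 834 CPM in the infarcts, other macrophages 482, 664 and 607 CPM, and resident-like cells 433, 1253 and 474 CPM. The 1253 CPM of infarct 2 came from 85 cells and exceeded the reparative-like cells of the same heart, so the order of these classes differed between hearts. At baseline the order was another one. Resident-like cells led with 450 CPM (95% interval 442 to 459), and other macrophages (206 CPM, 200 to 213) and reparative-like cells (203 CPM, 184 to 223) did not differ beyond counting error. C1q-low Gpnmb cells, which led for Syngr1, were low for Fcrls at baseline, with 31.2 CPM.

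**Figure D1:**
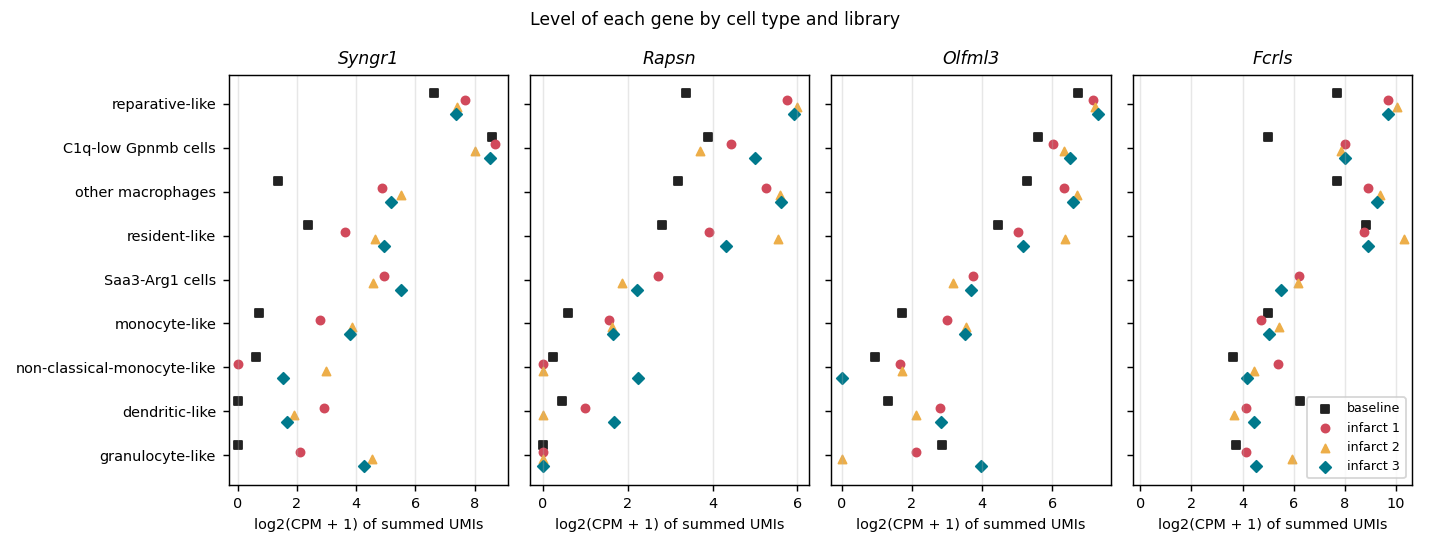
Level of each gene, as log2(CPM + 1) of the UMIs summed over the cells of a type (x axis), by gated type (y axis) and library (symbols, baseline and infarcts 1 to 3), for types with at least 50 cells in that library. Syngr1 is highest in C1q-low Gpnmb and reparative-like cells, whereas at baseline Fcrls is highest in resident-like cells.

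Most myeloid cells outside the macrophage classes held little of the 4 genes. In the infarcts, monocyte-like cells held 10.7 ± 4.1 CPM Syngr1, 2.06 ± 0.10 CPM Rapsn, 9.37 ± 2.02 CPM Olfml3 and 33.0 ± 8.7 CPM Fcrls (SD, n = 3). Granulocyte-like cells, which should lack macrophage genes, held 14.6 ± 10.0, 0, 5.96 ± 7.62 and 32.6 ± 23.3 CPM. The 0 for Rapsn rests on 216 cells. Small classes were exceptions. The 74 B-cell-like cells of the infarcts held 9.95 to 176 CPM Syngr1, on 29 UMIs in all, and the fibroblast-like cells held the Olfml3 levels given above. Saa3-Arg1 cells, gated by Saa3, Arg1 and Marco, held 32.3 ± 11.3 CPM Syngr1 and 62.6 ± 16.1 CPM Fcrls, with Rapsn at 3.93 ± 1.46 CPM and Olfml3 at 10.7 ± 2.4 CPM. The mean levels in monocyte-like cells lay within the range over the granulocyte-like cells of the 3 infarcts for Syngr1, Olfml3 and Fcrls. That range is wide and rests on 9, 5 and 19 UMIs, and whether the monocyte-like levels are background was not tested.

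Depth differs between types, so shares of positive cells were taken after thinning each cell to 2000 UMIs. In infarct reparative-like cells, a UMI was then found in 67.7% ± 4.3 of cells for Fcrls, 24.1% ± 1.6 for Olfml3, 23.2% ± 1.7 for Syngr1 and 9.99% ± 0.92 for Rapsn (SD, n = 3). Without thinning these shares were 86.9%, 61.7%, 54.6% and 34.2%. The thinned shares in granulocyte-like cells were 6.84% for Fcrls, 0.813% for Olfml3, 2.77% for Syngr1 and 0% for Rapsn. Median depth was 9030.5 to 9278.5 UMIs in the reparative-like and 2509.5 to 2793 UMIs in the granulocyte-like cells of the infarcts. Infarct cells with a UMI held 2.73 to 3.21 UMIs of Syngr1 on average and as many as 38, compared with 1.54 to 1.60 and at most 10 for Rapsn.

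Few cells held all 4 genes at that depth. After thinning, 19.0% ± 1.7 of the infarct reparative-like cells held no member, 45.0% ± 1.1 held 1, 28.6% ± 1.2 held 2, 6.95% ± 0.88 held 3 and 0.489% ± 0.113 held all 4. The share of cells with both genes of a pair was close to the product of the single shares. The ratio of the observed share to the product was 1.09 to 1.13 over the 3 hearts for Olfml3 with Fcrls and 1.06 to 1.13 for Rapsn with Fcrls. For Syngr1 it was 1.06 to 1.13 with Rapsn, 1.05 to 1.13 with Olfml3 and 0.977 to 1.03 with Fcrls. Rapsn with Olfml3 had 0.962 to 1.09. In sparse counts such ratios near 1 describe these cells and do not show that the genes are independent.

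Across the 37 sums of a library and type with at least 50 cells, which come from 4 libraries and 11 types and share depth within a library, the members followed each other to different degrees. Pearson's r of log2(CPM + 1) was 0.90 for Rapsn with Olfml3, 0.89 for Rapsn with Fcrls and 0.83 for Olfml3 with Fcrls. Syngr1 stood further off, with 0.78 for Olfml3, 0.75 for Rapsn and 0.60 for Fcrls. Likeness to other genes was ranked among 7847 genes. Mitochondrial and sex-linked genes and all marker genes of the gates, Gpnmb and Trem2 among them, were left out, so likeness to the gate markers was not compared. Those most like Syngr1 were Fth1 (0.92), Dtnbp1 (0.92), Lhfpl2 (0.92), Ctsd (0.90) and Ftl1 (0.90). Of these, Fth1 and Ftl1 encode the ferritin chains and Ctsd a lysosomal protease. Those most like Rapsn were Ms4a7 (0.92), Apoe (0.91), Itm2b (0.90), Olfml3 itself and Gna12 (0.90). For Olfml3 they were Hpgds (0.91), Ms4a14 (0.91), Ms4a7 (0.91), Rapsn and Hebp1 (0.89), and for Fcrls Itm2b (0.93), Gna12 (0.92), Rapsn, Ccl12 (0.89) and Ntpcr (0.88). Rapsn and Olfml3 appear in each other's lists, whereas no member is among the 5 genes most like Syngr1.

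The next comparison asked how the genes differ between infarcted and normal hearts. Over all cells, Syngr1 was at 109, 117 and 110 CPM in infarcts 1 to 3 against 12.5 CPM at baseline (95% counting interval 11.6 to 13.3). Rapsn was at 32.6, 48.5 and 44.5 CPM against 5.09 CPM (4.56 to 5.66). Olfml3 was at 85.2, 116 and 110 CPM against 22.8 CPM (21.7 to 24.0). Fcrls was at 489, 787 and 601 CPM against 262 CPM (258 to 266). Each infarct library lay above the baseline library for each gene. The ratio of the infarct mean to baseline was 8.98 for Syngr1, 8.23 for Rapsn, 4.56 for Olfml3 and 2.39 for Fcrls, or 3.17, 3.04, 2.19 and 1.26 on the log2 scale. Of 7708 genes that averaged 10 CPM or more, 30.7% were above baseline in all 3 infarct libraries, and the median log2 ratio was -0.17. With 1 baseline library there is no test, and the genes were chosen from cells that are mostly from infarcts.

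In bulk of all cells, more reparative-like cells and more RNA per such cell cannot be told apart, so the same ratio was taken inside the reparative-like gate. There it was much smaller for Syngr1 (log2 0.87) and Olfml3 (0.50), somewhat smaller for Rapsn (2.64) and larger for Fcrls (2.16). The baseline values inside the gate rest on 235 cells and on 208 UMIs of Syngr1, 20 of Rapsn, 226 of Olfml3 and 435 of Fcrls. Again all 3 infarct libraries were above baseline for each gene, as were 31.1% of 7537 genes. Median reparative score was 14.7 UMIs per 10000 in these baseline cells and 20.7 to 22.6 in the infarct ones, and with the cutoff doubled the log2 ratio of Syngr1 was 0.22. Thinning gave 1.76 for Syngr1 and the mean of each cell's CPM gave 1.44. The part of that score difference in the ratios was not tested otherwise.

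Other macrophages were also higher in infarcts. There the infarct mean was 36.1 ± 8.0 CPM for Syngr1 against 1.58 at baseline, 43.9 ± 6.0 against 8.11 for Rapsn, 92.8 ± 12.1 against 38.0 for Olfml3 and 584 ± 93 against 206 for Fcrls (SD, n = 3). The log2 ratios were 4.52, 2.44, 1.29 and 1.503, and all 3 hearts were above baseline for each gene. The share of all genes above baseline was not counted in this class or in the classes named below. Baseline Syngr1 in other macrophages rests on 28 UMIs, which limits its ratio. The median reparative score of these cells, below the cutoff, was 5.77 to 6.68 UMIs per 10000 in infarcts and 2.53 at baseline, and its part in the ratios was not tested. In resident-like cells Rapsn (log2 2.14) and Olfml3 (1.23) were above baseline in all 3 hearts and Fcrls in 2 of 3. Syngr1 in infarct resident-like cells (11.4 to 29.7 CPM) overlapped the granulocyte-like cells (3.33 to 22.3 CPM), so no change is read from it. In C1q-low Gpnmb cells Syngr1 was above baseline in 1 of 3 hearts (343 ± 81 CPM against 380 CPM).

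At baseline most Syngr1 came from very few cells. The 78 C1q-low Gpnmb cells were 0.762% of the baseline cells and held 463 of the 843 Syngr1 UMIs, or 54.9%, and the 235 reparative-like cells held a further 24.7%. The top 1% of baseline cells held 84.9% of all Syngr1 UMIs, compared with 14.001% to 18.3% in the infarcts. In the infarcts the C1q-low Gpnmb cells were 2.04% ± 0.43 of cells and held 8.42% ± 2.80 of Syngr1 UMIs, and reparative-like cells, at 45.1% ± 8.2 of cells, held 78.5% ± 2.9 (SD, n = 3). Rapsn, Olfml3 and Fcrls were spread differently at baseline, since other macrophages and resident-like cells, which were 27.7% and 30.6% of the cells, together held most of their UMIs. Resident-like cells alone held 60.2% of Fcrls and 41.0% of Rapsn UMIs.

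**Figure D2:**
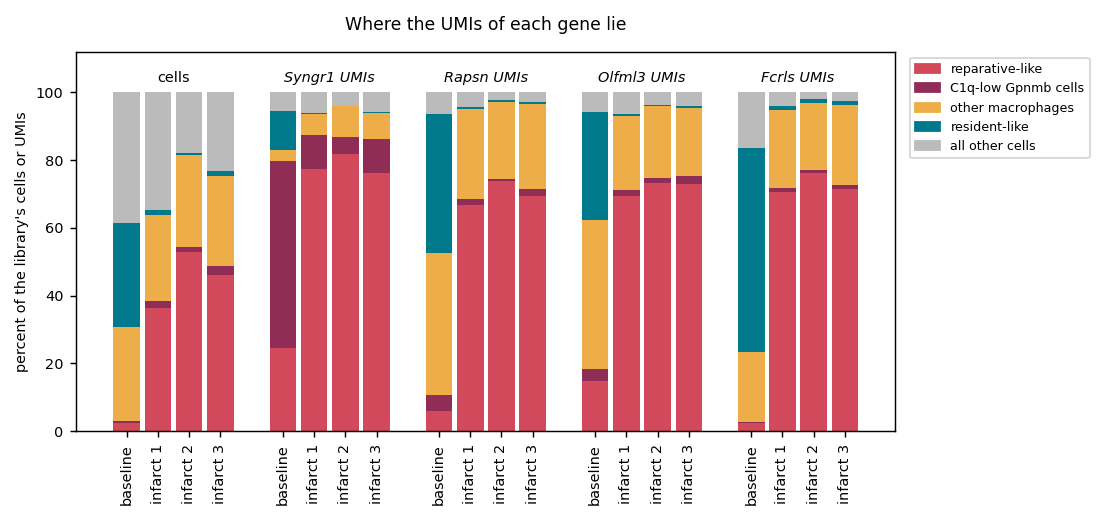
Stacked bars give the percent (y axis) of each library's cells and of each gene's UMIs that lie in 4 macrophage classes and in all other cells, for the baseline library and infarcts 1 to 3 (x axis). At baseline 54.9% of Syngr1 UMIs lie in C1q-low Gpnmb cells, and 60.2% of Fcrls UMIs lie in resident-like cells.

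The C1q-low Gpnmb cells differed between libraries. They had few resident genes (a summed level of 50.8 to 86.2 CPM over 6 genes) and high reparative markers (7671 CPM at baseline, 8347 to 10593 CPM in infarcts). Both traits are set in part by the gate, which asks for more reparative than resident marker UMIs. Scgb1a1, a secretory gene of airway club cells, was at 59.1 CPM in the baseline cells of this class, at 0.265 CPM in the rest of the baseline library and at 0 to 0.426 CPM in the class in infarcts. A list of 8 alveolar macrophage genes, chosen after these values had been seen, summed to 61.6 CPM there with 5 genes at 0 (Car4, Ear1, Krt79, Marco, Fabp1), and to 114 CPM in the rest of that library, of which Ear2 made up 83.7 CPM. Marco is also a marker of the Saa3-Arg1 gate, which was applied earlier, so its 0 is not independent of the gates. Pparg was higher in the class than in the rest (50.1 against 25.6 CPM). Siglecf (2.46 against 1.03 CPM) rests on very few UMIs, since 17 Rapsn UMIs make 13.96 CPM in these baseline cells, and no difference is read from it. Of 8 osteoclast genes, Ctsk and Acp5 were at 1868 and 1338 CPM in the class in infarct 2 and at 21.3 to 143 CPM in the other 3 libraries, and Calcr was at 0 in the class in all 4 libraries. Infarct 2 had the lowest Syngr1 of this class. The part of such cells in the Syngr1 levels was not tested.

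Tests were made inside the infarct reparative-like cells, where both arms of a comparison lie within the gate. UMIs were summed per heart and arm and compared with edgeR's quasi-likelihood test with the heart as a block, and a gene was called at an adjusted p under 0.01 after Benjamini-Hochberg adjustment over all genes tested. The genes were picked along the reparative score, and arms that differ in that score are not independent of the choice. The first split asked whether the genes vary with antigen presentation genes, and ranked the cells of each heart by MHC class II UMIs (H2-Aa, H2-Ab1, H2-Eb1, Cd74) per 10000. The 1264, 1898 and 1556 highest cells in infarcts 1 to 3 were set against equally many lowest cells.

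Syngr1 was at 102, 97.2 and 91.0 CPM in the MHC-II-high cells of infarcts 1 to 3 and at 294, 233 and 220 CPM in the MHC-II-low cells. The arms did not overlap, and the log2 difference was -1.29 ± 0.05 (SE, n = 3 hearts, edgeR adjusted p = 1.28e-09). Fcrls was at 550, 685 and 558 CPM against 1071, 1296 and 1052 CPM, a log2 difference of -0.87 ± 0.03 (edgeR adjusted p = 1.38e-10). Olfml3 was at 113, 117 and 118 CPM against 158, 169 and 182 CPM (-0.49 ± 0.03, edgeR adjusted p = 3.87e-07). Rapsn was at 49.96, 57.3 and 58.0 CPM against 53.8, 65.4 and 61.9 CPM and was not called (-0.08 ± 0.04, edgeR adjusted p = 0.203). So 3 of 4 members fell with MHC-II, lower in 3 of 3 hearts each, beside 19.4% of 11586 genes called in either direction and 1058 of them lower.

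The MHC-II-high cells also had fewer reparative markers, so the p-values above are not independent evidence, with a median of 16.5 to 17.2 against 26.9 to 30.3 UMIs per 10000, and a median classical monocyte score of 3.95 to 5.62 against 0. In a narrow band of cells with 8 to 14 UMIs of the reparative markers other than Spp1 per 10000, a setting chosen after seeing the data, Syngr1 was still at 66.9, 67.1 and 52.7 CPM against 149, 150.0 and 113 CPM. Fcrls was at 495, 594 and 500.3 CPM against 1195, 1276 and 1186 CPM in that band. The band narrowed the difference in score but did not remove it, since the medians, Spp1 included, were 13.1 to 13.3 against 15.4 to 17.1, and the monocyte score was 5.66 to 7.17 against 0. The same 3 members were called there. In the baseline library, the MHC-II-high reparative-like cells held 1 Syngr1 UMI in 79 cells and the MHC-II-low cells, also 79, held 150 UMIs, or 174 CPM (95% counting interval 147 to 204), while Fcrls was at 190 CPM against 227 CPM with overlapping intervals.

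The second split ranked the cells by Spp1, which encodes the secreted matrix protein osteopontin, and took arms of the same sizes. Spp1 is one of the markers of the gate and moves with the score the genes were chosen along, so these p-values are not independent evidence. Syngr1 was at 329, 248 and 247 CPM in Spp1-high and at 107, 104 and 106 CPM in Spp1-low cells (log2 1.36 ± 0.06, edgeR adjusted p = 5.3e-09). Rapsn went the other way in all 3 hearts, with 44.7, 57.6 and 54.2 CPM against 58.2, 66.1 and 68.8 CPM (-0.30 ± 0.05, edgeR adjusted p = 0.000421). Olfml3 (0.11 ± 0.04, edgeR adjusted p = 0.0549) and Fcrls (0.11 ± 0.03, edgeR adjusted p = 0.0339) were not called. Fcrls was called in 4 of 12 alternatives (lowest adjusted p 0.00264, in the narrow band) and Olfml3 in 1 (0.00701, without infarct replicate 2). The share of all genes called was 19.7% of 11550. The call of Rapsn is not firm, since its adjusted p was 0.0104 with DESeq2, 0.102 without the block, 0.0108 without infarct replicate 3, 0.024 after thinning and 0.0599 in the narrow band.

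Cells with interferon-response genes (Cxcl10, Ifit1, Ifit2, Ifit3, Rsad2, Isg15) numbered 202, 339 and 172 and were set against the other 3590, 5353 and 4495 cells. With edgeR, 0 of the 4 members were called, beside 8.59% of 11868 genes, and 0 had an unadjusted p under 0.05. DESeq2 also called 0. The log2 differences were -0.10 ± 0.07 for Syngr1, -0.16 ± 0.10 for Rapsn, -0.01 ± 0.07 for Olfml3 and 0.06 ± 0.06 for Fcrls (SE, n = 3), with edgeR adjusted p-values of 0.441, 0.334, 0.946 and 0.596.

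Cycling cells, with Mki67, Top2a, Birc5, Ccnb1, Cdk1 and Plk1, numbered 67, 109 and 73 against 3725, 5583 and 4594 others. Rapsn was at 20.7, 29.2 and 36.0 CPM in cycling cells and at 53.7, 63.4 and 60.6 CPM in the others (log2 -1.14 ± 0.13, edgeR adjusted p = 1.3e-07), with no overlap. Syngr1 was at 187, 123 and 92.8 CPM against 204, 169 and 164 CPM (-0.52 ± 0.09, edgeR adjusted p = 4.56e-05), where infarct 1 overlapped the other arm. Fcrls was at 779, 982 and 615 CPM against 834, 1049 and 839 CPM (-0.29 ± 0.06, edgeR adjusted p = 0.000325), and Olfml3 was not called (-0.25 ± 0.08, edgeR adjusted p = 0.0141). So 3 of 4 members fell, beside 26.5% of 11934 genes called. Cycling cells had a lower median reparative score in each heart, with 20.6, 21.3 and 16.3 against 22.6, 22.2 and 20.8 UMIs per 10000. These p-values are therefore not independent of how the members were chosen. The Fcrls call was lost in 3 of 12 alternatives, with adjusted p-values of 0.187 without the block, 0.0554 without cells over 20000 UMIs and 0.665 in the narrow band. That of Syngr1 was lost without the block (0.035), and Olfml3 was called with no filter on low counts (0.00201) and without cells over 10% mitochondrial UMIs (0.00775). Median depth was 15939 to 16388 UMIs in cycling cells and 8982 to 9240 in the others, and its part was not tested except by thinning, after which Rapsn stayed called. In the narrow band Rapsn alone stayed called, and Syngr1 was at log2 0.02 (edgeR adjusted p = 0.942).

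**Figure D3:**
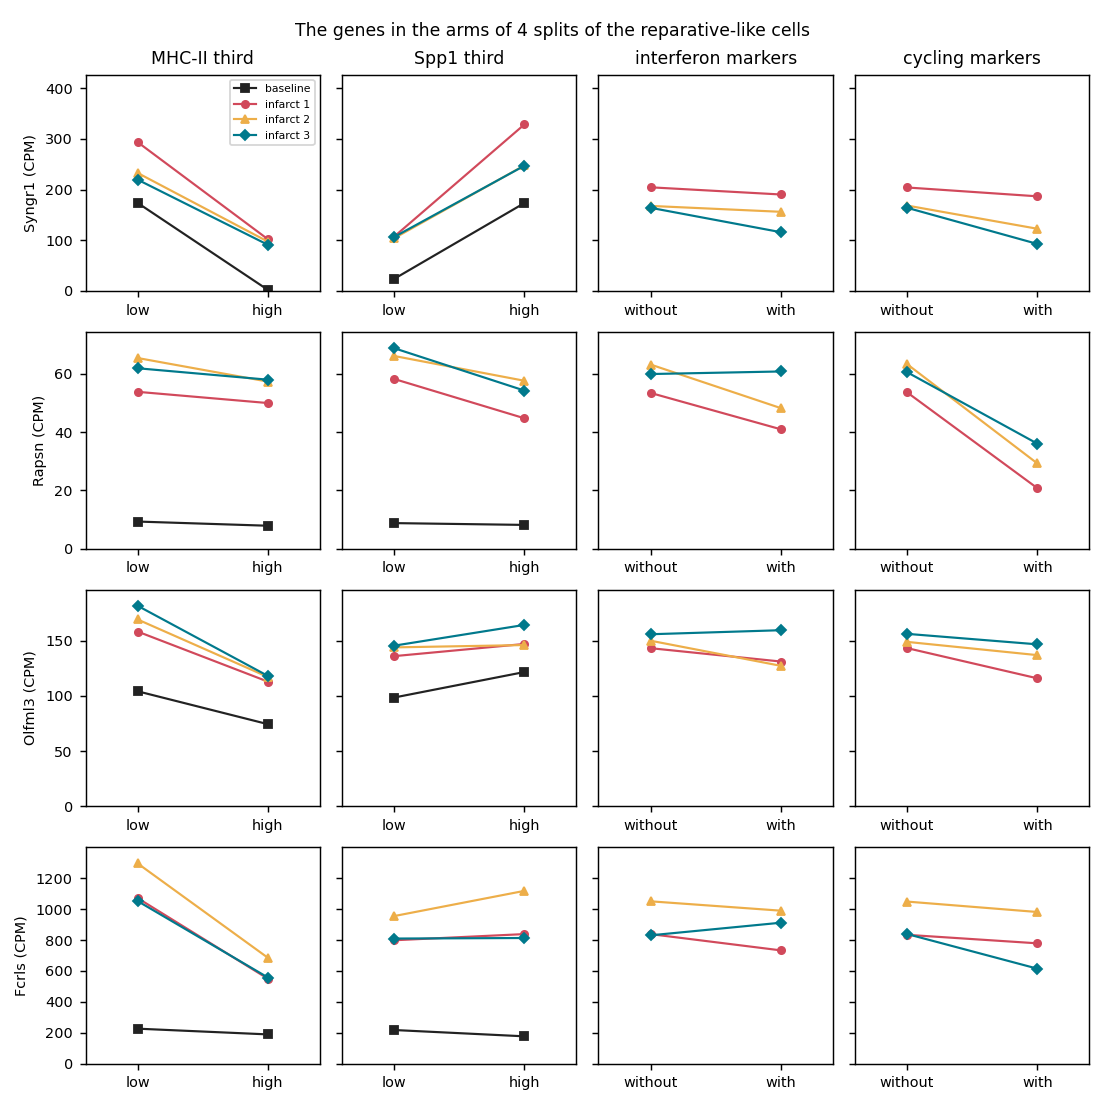
CPM of each gene (y axis) in the 2 arms of each split of reparative-like cells (x axis), with a line per library joining the arms; the baseline library is drawn for the MHC-II and Spp1 splits. Syngr1 falls from 220 to 294 CPM to 91.0 to 102 CPM with MHC-II in the infarcts, and Rapsn in the infarcts is at 20.7 to 36.0 CPM in cycling cells.

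The relatives of each gene were mostly at or near 0 in these cells. Among 8 synaptogyrin and synaptophysin genes, Syngr2 (147 ± 5 CPM) and Sypl (85.5 ± 4.0 CPM) were the others above 10 CPM in infarct reparative-like cells, and 4 of 8 were under 1 CPM (SD, n = 3). Syngr2 rose with MHC-II (log2 0.36 ± 0.03, edgeR adjusted p = 2.47e-06) and fell with Spp1 (-0.19 ± 0.03, edgeR adjusted p = 0.000887), opposite to Syngr1. Sypl fell with MHC-II (-0.37 ± 0.04, edgeR adjusted p = 5.51e-06) and rose with Spp1 (0.30 ± 0.04, edgeR adjusted p = 5.07e-05).

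Rapsn was counted without its partners of the neuromuscular junction. Of 10 genes in that list, Rapsn was the only one at 10 CPM or more, and 7 were under 1 CPM. The receptor subunits Chrna1, Chrnb1, Chrnd, Chrne and Chrng had 5, 59, 0, 20 and 37 UMIs over all 41533 cells, and the kinase Musk and its adaptor Dok7 had 13 and 9. Agrn (3.42 ± 0.51 CPM) and the agrin receptor Lrp4 (2.98 ± 0.35 CPM) were low but present, and neither was called in any of the 4 splits.

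Among 10 olfactomedin-domain genes, Olfm1 (52.5 ± 1.8 CPM) was the other one above 10 CPM, and it rose with MHC-II (log2 1.06 ± 0.05, edgeR adjusted p = 7.59e-09) while Olfml3 fell. Among 6 Fc receptor-like genes, Fcrl1 (16.3 ± 4.1 CPM) was the other one above 10 CPM. Fcrl1 fell with MHC-II (-0.58 ± 0.08, edgeR adjusted p = 7.74e-05) and in cycling cells (-1.58 ± 0.26, edgeR adjusted p = 1.9e-05), as Fcrls did, and over all cells it was at 10.99 CPM in infarcts against 2.20 CPM at baseline.

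Olfml3 and Fcrls are also 2 of a list of 12 microglia genes, 8 of which reached 10 CPM in infarct reparative-like cells. The fractalkine receptor Cx3cr1 (695 ± 21 CPM) was nearest to Fcrls in level, and Gpr34 (105 ± 16 CPM) and Tmem119 (88.4 ± 12.6 CPM) were below Olfml3. Sall1, a transcription factor that defines microglia, had 0 UMIs. Over all cells, 6 of the 12, Olfml3 and Fcrls among them, were above baseline in all 3 infarcts. One of the 6, Slc2a5, had 13 UMIs in all libraries together, so nothing is read from its place there. The share above baseline was 30.7% among genes at 10 CPM or more, a level that Slc2a5 and some others of the 12 do not reach. The 6 also included Tmem119 (log2 2.09) and Sparc (2.13), which is also a marker of the gate. Another 5 were below baseline in all 3, including P2ry12 (-0.49), Gpr34 (-0.40) and P2ry13 (-1.52). The share of all genes below baseline was not counted.

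Inside the gate the other microglia genes moved in both directions. With MHC-II, Cx3cr1 (log2 0.39 ± 0.03, edgeR adjusted p = 1.45e-07), Siglech and Sparc rose and P2ry12 fell (-0.34 ± 0.05, edgeR adjusted p = 0.000132) among 7 tested. The median was 0.21 against 0.00 for all genes, 19.4% of which were called. Siglech was at only 0.98 CPM in infarct reparative-like cells. Sparc is a marker of the gate and the arms differ in that score, so its rise is not independent of the gate. With Spp1, 6 of 7 fell, at a median of -0.55 against -0.0026 for all genes, 19.7% of which were called. The 6 include Cx3cr1 (-0.64 ± 0.03, edgeR adjusted p = 2.8e-09) and Tmem119 (-0.48 ± 0.04, edgeR adjusted p = 1.02e-06). Sparc (-0.91) is also among the 6, but it is a marker of the gate. Cells low in Spp1 pass the gate mainly through its other markers, so the fall of Sparc is not independent of the gate. In interferon cells P2ry12 and P2ry13 rose and Gpr34 fell. In cycling cells 3 of 7 fell, beside 26.5% of all genes called, led by Gpr34 (-1.62 ± 0.12, edgeR adjusted p = 9.96e-12). No test of the difference between these genes and the members was made.

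**Figure D4:**
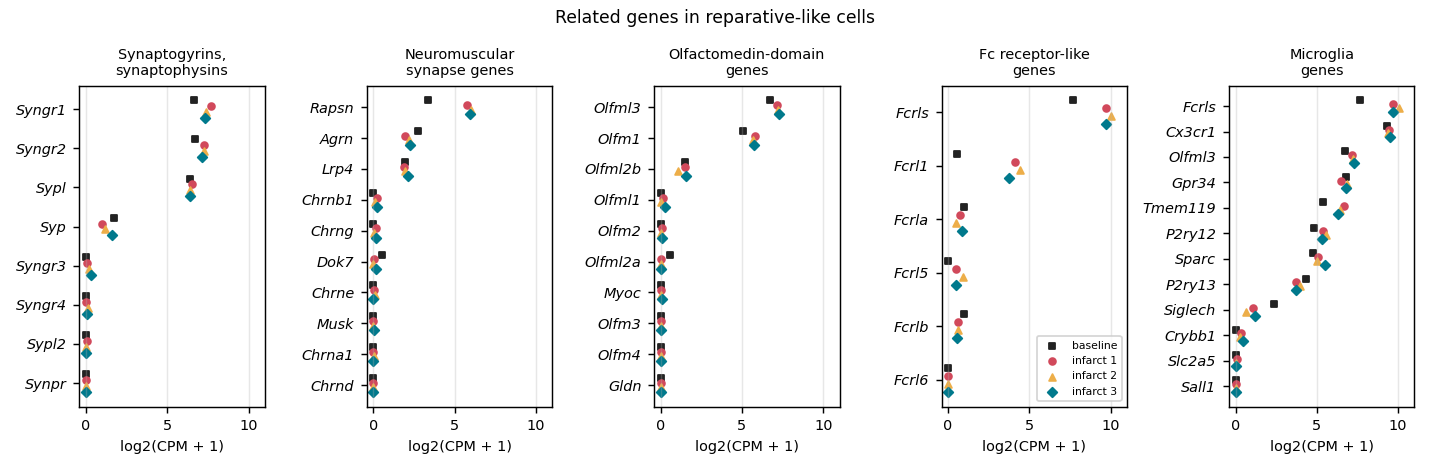
log2(CPM + 1) of each listed gene in reparative-like cells (x axis), by library (symbols), for the relatives of each of the 4 genes and the microglia list (panels). Rapsn stands alone above 10 CPM among the neuromuscular genes, whereas 8 of 12 microglia genes reach that level.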

How the data were processed

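Single-cell libraries (3′ UMI counting) were made from EGFP+ Ly6G- cells of 1 baseline pool and 3 infarct hearts. The deposited values are UMI counts per gene and cell that the authors made with Cell Ranger on mm10. The file headers name version 3.1.0 and the submitters' processing notes name 3.0.1. How strand was treated is not given in the sources used here.

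The study's filter (a total between 500 and 40000 UMIs, with more than 200 genes detected) was applied. Doublets were treated only by the sort, a class for cells with markers of 2 lineages, and an alternative without cells over 20000 UMIs. Cells were named by marker UMIs per 10000. Gate limits were set after the marker distributions had been seen, and the members and lists were chosen with earlier results of these data known. Levels are CPM of summed UMIs without mitochondrial genes; 95% intervals are exact Poisson and cover counting error only. One UMI stands for 1 molecule, whatever the length of the transcript.

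Splits of reparative-like cells were tested with edgeR 4.0.16 (R 4.3.3, TMM, filterByExpr, heart as block, adjusted p under 0.01), leaving out the genes that define the split and mitochondrial genes. Each pair of sums comes from 1 heart, and their deviations correlated at 0.145 to 0.513. On simulated counts with 200 genes changed 2-fold, 92.5% were recovered for the MHC-II split (11460 genes), 90.5% for Spp1 (11464), 70.5% for interferon (11706) and 57% for cycling (11762). Named genes are the 4 members, their family and microglia lists, the 5 genes most alike in level and the 3 ranked on either side. Scgb1a1, the alveolar and osteoclast lists and the C1q-low class were added after values were seen. Alternatives were DESeq2 1.42.0, no block, leaving out each heart, other filters and gates, thinning and TMM scaling. Python 3.11.15, numpy 2.4.6, scipy 1.17.1 and pandas 2.3.3 were used. One gene of the microglia list is not reported here.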

Additional observations from a re-analysis of the deposited data

Results flagged for a closer look

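Fcrls was lower in Spp1-high than in Spp1-low reparative-like cells of the baseline library, at 177 CPM (95% counting interval 152 to 206) against 218 CPM (187 to 253), a log2 difference of -0.30, whereas the 3 infarct hearts had differences of 0.07, 0.23 and 0.01. The counting intervals of the baseline arms overlap, and the difference between baseline and infarct was not tested.

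In dendritic-like cells Fcrls was at 75.1 CPM at baseline (65.1 to 86.2) and at 16.3, 11.5 and 20.8 CPM in the infarcts, a log2 ratio of -2.21. In 5 of the 8 types with enough cells all 3 infarcts were above baseline for Fcrls. The difference between types was not tested.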

How the results depend on the processing

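Heart as a block was the main design. With no replicate block, 734 genes were called for MHC-II and 518 for Spp1, and 1 member each for Spp1 and cycling. DESeq2 called 1170 genes for MHC-II and 1034 for Spp1, with 1 member for Spp1. Leaving out 1 heart gave 1486 (without replicate 2) to 1974 genes for MHC-II, and 1276 (without replicate 3) to 2139 genes with 1 to 3 members for Spp1. Thinning to 2000 UMIs gave 1011 genes for MHC-II, 847 for Spp1 with 1 member, 518 for interferon and 960 for cycling. The doubled cutoff gave 1197 for MHC-II. The narrow band, chosen after seeing the data, gave 1085, 630, 639 and 1847 genes for MHC-II, Spp1, interferon and cycling, with 1 member for cycling. In all 12 alternatives Syngr1, Fcrls and Olfml3 were called lower with MHC-II, and no member was called for interferon.

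Uncalled values that changed sign were, on the log2 scale, Rapsn for MHC-II (0.041) and Olfml3 and Fcrls for Spp1 (-0.11 and -0.032) at the doubled cutoff, Olfml3 for interferon with DESeq2 (0.0016), and, leaving out 1 heart, over a range of -0.089 to 0.065 (0.0053 without replicate 1), and Fcrls for interferon leaving out 1 heart (-0.039 to 0.14) and after thinning (-0.037). Syngr1 for cycling was 0.021 in the narrow band. The causes were not tested.

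No paired analysis was possible because the baseline is 1 pooled library, for infarct against baseline. Over all cells the log2 ratio of Syngr1 was 3.98 as the mean of each cell's CPM, 3.93 thinned, 3.47 without cells over 20000 UMIs and 3.45 with TMM, and that of Olfml3 was 2.48 with TMM. In reparative-like cells, the mean of each cell's CPM gave 1.44 for Syngr1, 3.00 for Rapsn and 0.61 for Olfml3. Thinning gave 1.76, 3.06 and 0.18, and 1.95 for Fcrls. The doubled cutoff gave 0.22, 2.06 and 0.35, and TMM gave 1.11, 2.89, 0.74 and 2.40 for Fcrls. All 3 infarcts stayed above baseline in these settings. Baseline Rapsn in reparative-like cells rests on 20 UMIs, which limits its ratio.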
